A study of Mus musculus with 8 samples.

Results

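The genes described here are 9 transcription factors of the epidermal lineage, Trp63, Klf4, Klf5, Grhl1, Grhl2, Grhl3, Ovol1, Zfp750 and Prdm1, out of 28792 gene symbols in each deposited table. They were picked by symbol, each symbol had 1 row in each table, and all 9 reached at least 1 FPKM (fragments mapped to a gene, scaled per kilobase of transcript and to library size) in some library of both pairs. Their levels were read in 4 RNA sequencing libraries of hair follicle stem cells of the bulge, sorted from mouse back skin, with 1 library per group. The cKO cells came from K15CrePGR mice with Ctnnb1fl/fl, that is with both copies of the β-catenin gene floxed, and the Het cells from K15CrePGR mice with Ctnnb1+/fl. Both carried the Rosa-YFPfl/stop/fl reporter and were taken from females at postnatal day 99 on a C57BL6/129Sv background. The LacZ-positive and LacZ-negative bulge cells were sorted by reporter activity from Axin2LacZ/+ males at postnatal day 24 on a C57BL6 background, as telogen passed to anagen. Both of these populations therefore carry the same reporter allele at Axin2. K15CrePGR places Cre under a keratin 15 promoter, and the sources used here give no share of sorted cells that had recombined. The stage of the first pair is given as telogen in one label and as the onset of anagen in the design text. The number of animals behind a library is unknown.

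Stratified epidermis and hair follicles arise from the same basal layer. p63, the product of Trp63, holds the basal state and opens the keratinocyte programme. A second tier of factors then acts as cells leave the basal layer: Klf4, the grainyhead-like genes, Ovol1, ZNF750 (the human orthologue of Zfp750, studied in human keratinocytes) and Blimp1, the product of Prdm1. Bulge stem cells share p63 with the rest of the basal layer and are not themselves cornifying cells.

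With 1 library per group there is no replicate error and no test. Every difference below describes these libraries, and the spread between animals is unknown, so whether neighbouring levels differ beyond it cannot be said. No count of reads can be had from FPKM, so depth is also unknown. Ctnnb1, the targeted gene, stood at 369.6 FPKM in the library labelled cKO and 251 in the library labelled Het, which does not bear out the cKO label. A gene-level value does not resolve the floxed part, so it cannot check that label in either direction. These libraries are called by their labels, and each direction between them rests on those labels. Axin2, a Wnt target, stood at 2.12 FPKM under the cKO label against 16.3 under the Het label, and the LacZ-positive cells had 19.0 FPKM of it against 9.10 in LacZ-negative cells, as they were sorted. The bulge keratin Krt15 had 5951 FPKM in LacZ-positive cells but is listed at 0 for LacZ-negative cells, while the basal keratin Krt5 stood at 5693 and 8690.0 FPKM in the same order, and the bulge marker Cd34 was present in all 4 libraries at 223 to 752 FPKM. Among markers of other lineages, 10 of 12 for leukocytes and all 5 for endothelium stayed under 1 FPKM in both libraries of each pair. So did at least 3 of 6 fibroblast markers, but Col1a1 reached 13.1 FPKM (LacZ-negative) and Col1a2 12.5 (cKO label). Of 7 melanocyte markers, 5 stayed under 1 FPKM in the first pair and 3 in the LacZ pair. Mitf stood at 43.2 FPKM under the cKO label and 44.0 under the Het label, and Dct at 15.2 (LacZ-positive) and 12.5 (LacZ-negative). Of 7 Merkel cell and nerve markers, 4 stayed under 1 FPKM in the first pair and 6 in the LacZ pair.

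Levels are set side by side across all 4 libraries, although the tables were deposited separately and differ in sex, age and strain. Trp63 and Klf4 stood far above the rest and together made up most of the summed FPKM of the 9 genes. Trp63 was at 168 FPKM in cKO-labelled cells, 209 in Het-labelled cells, 237 in LacZ-positive cells and 263 in LacZ-negative cells, at or above at least 95.9% of the genes at 1 FPKM or more in each library. Klf4 was at 272, 161, 113 and 159.8 FPKM in the same order of libraries, and was the highest of the 9 in cKO-labelled cells and the second highest in the other libraries. Grhl2 came next in all 4 libraries, at 25.9 to 38.2 FPKM, and Grhl1 after it, at 10.2 to 24.6 FPKM. The remaining genes, Klf5, Ovol1, Zfp750, Grhl3 and Prdm1, lay between 0.708 and 15.5 FPKM. Prdm1, which marks sebocyte precursors and cornifying cells in mouse skin, was the lowest in cKO-labelled, Het-labelled and LacZ-positive cells, and Grhl3 was the lowest in LacZ-negative cells.

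**Figure D1:**
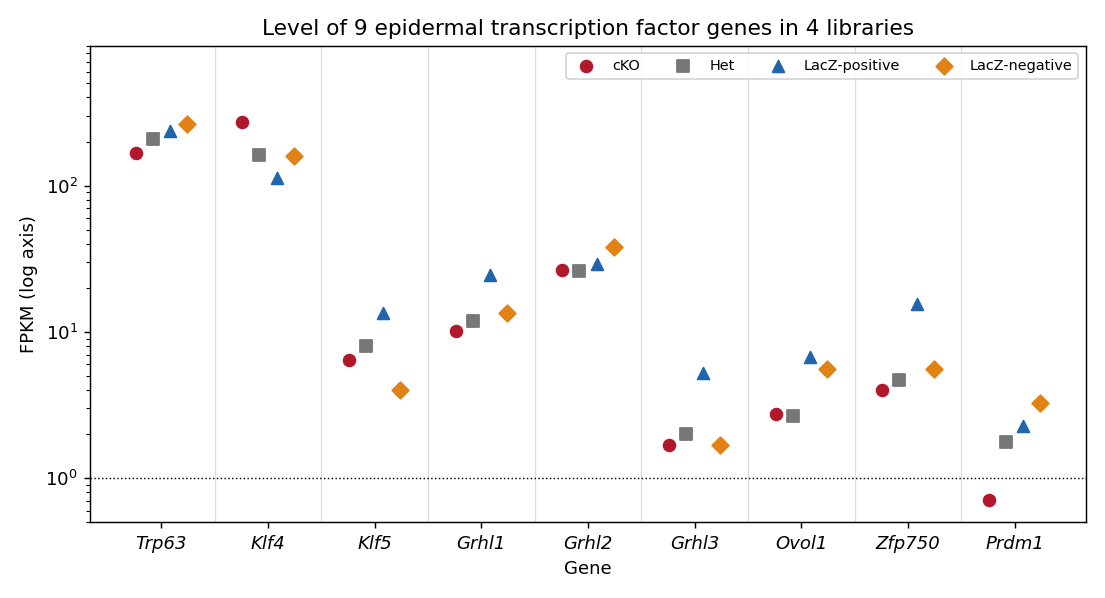
FPKM (log axis) of the 9 genes in the cKO-labelled, Het-labelled, LacZ-positive and LacZ-negative libraries, 1 point per library, with a dotted line at 1 FPKM. Trp63 and Klf4 lie at 113 FPKM or more in every library, while Klf5, Grhl1, Grhl3, Ovol1 and Zfp750 are highest in LacZ-positive cells.

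The promoters of Grhl1 and Grhl3 are shown because these related genes both stood higher in LacZ-positive cells. The TCF/LEF motif of Wnt effectors, and those of the grainyhead and KLF families, can be compared between the promoters. The sequences cover 300 bases, from 250 before to 50 after a transcript start, 5′ to 3′ on the gene's strand, from RefSeq on GRCm38.p6. The table held 4 of the 9 genes, Klf4, Grhl1, Grhl3 and Prdm1, with 2 starts for Grhl1. Capitals mark any match, on either strand, to the TCF/LEF core CTTTGA, the grainyhead core ACCGGT or the KLF core GGGNGTG.
Grhl3, chr4:135573583-135573882, minus strand: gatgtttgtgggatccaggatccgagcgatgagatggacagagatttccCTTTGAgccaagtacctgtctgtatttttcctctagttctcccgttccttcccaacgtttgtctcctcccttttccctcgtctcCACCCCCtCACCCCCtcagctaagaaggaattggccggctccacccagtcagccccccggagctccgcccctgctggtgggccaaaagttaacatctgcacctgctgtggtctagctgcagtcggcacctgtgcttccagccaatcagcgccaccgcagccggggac
Grhl1 first start, chr12:24572037-24572336, plus strand: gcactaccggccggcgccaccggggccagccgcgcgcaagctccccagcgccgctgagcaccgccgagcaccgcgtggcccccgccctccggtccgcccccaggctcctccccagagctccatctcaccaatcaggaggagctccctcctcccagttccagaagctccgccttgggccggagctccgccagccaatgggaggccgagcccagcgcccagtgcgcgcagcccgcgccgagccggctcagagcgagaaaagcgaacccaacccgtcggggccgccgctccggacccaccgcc
Grhl1 second start, chr12:24580469-24580768, plus strand: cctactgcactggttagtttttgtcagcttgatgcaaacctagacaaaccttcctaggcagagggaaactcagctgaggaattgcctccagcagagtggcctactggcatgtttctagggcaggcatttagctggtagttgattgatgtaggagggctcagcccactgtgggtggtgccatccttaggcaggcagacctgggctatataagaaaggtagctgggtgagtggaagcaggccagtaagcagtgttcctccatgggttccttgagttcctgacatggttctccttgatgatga

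The Grhl3 window held 1 TCF/LEF core, whose first base lies at -201 relative to the start, and 2 KLF cores on the opposite strand, at -117 and -109. None of the matches overlapped another. Neither Grhl1 window held any of the 3 motifs, nor did that of Klf4, and the Prdm1 window held 1 KLF core. These letters are common: among 32851 promoter windows of the same length, 16% hold the TCF/LEF core and 29.2% the KLF core, against 2.33% for the grainyhead core. The first Grhl1 window was 75.3% G and C, the second 51.3% and that of Grhl3 58.3%, where the median window has 52.7%. A match describes letters in the window and is not evidence of binding.

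The first comparison sets cKO-labelled against Het-labelled cells. Differences are log2 of (FPKM + 1) in cKO-labelled over (FPKM + 1) in Het-labelled, and 2-fold stands for a log2 difference of 1 or more in size. None of the 9 genes differed by 2-fold (0 higher, 0 lower), where 4.09% of all 13014 genes at 1 FPKM or more did, 1.8% higher and 2.29% lower. The 9 genes had a median of -0.18, against 0.06 over all those genes, with 3 genes higher and 6 lower, where 60.9% of all genes were higher. With differences centred on the median of genes that had 5 FPKM or more on both sides (0.07), 1 gene was higher and 8 were lower. In bulk libraries such as these, fewer cells of a type and less RNA per cell cannot be told apart.

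Klf4 was the member with the highest difference. This zinc finger factor is needed for the skin barrier in mice. It stood at 272 FPKM in cKO-labelled and 161 in Het-labelled cells, a log2 difference of 0.75, which 2.78% of all genes equalled or exceeded. Immediate early genes, the transcripts that answer serum and tissue dissociation within minutes, stood higher beside it: all 16 on the list were higher in cKO-labelled cells, 9 of them by at least 2-fold, and their median was 1.08. Among them Atf3 stood at 246 FPKM in cKO-labelled against 75.8 in Het-labelled cells, and Nr4a1 at 123 against 41.1. In the LacZ pair the same list had a smaller median, 0.50, with 13 of 16 genes higher in LacZ-positive cells, and Klf4 stood at -0.49. The part of these genes in the value of Klf4 was not tested in either pair.

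Prdm1 was the member with the lowest difference, at 0.708 FPKM in cKO-labelled and 1.76 in Het-labelled cells. The log2 difference was -0.69, or -0.76 when centred, against 0.75 and 0.68 for Klf4, so which of these 2 is larger in size turns with the centring. The uncentred value is one that 3.73% of all genes equalled or fell below, and at such low levels the added 1 compresses the ratio. The plain ratio of cKO-labelled over Het-labelled was 0.402, a log2 of -1.32, so with a pseudocount of 0.1 Prdm1 passed the 2-fold line at -1.20. Of 11 sebaceous gland genes, a lineage in which Prdm1 is also known, 8 were measured. Here and below, measured means 1 FPKM or more in either library of the pair. Of these 8 genes 5 were higher, a share close to the 60.9% of all genes that were higher in this pair. Fasn (-0.20), Awat2 (-0.16) and Acsl1 (-0.05) were lower. Scd3 (1.20) and Fa2h (1.07) were higher by 2-fold or more, where 1.8% of all genes were. Both were low, Scd3 at 2.33 FPKM in cKO-labelled against 0.451 in Het-labelled cells and Fa2h at 2.92 against 0.869. The part of the sebaceous gland genes in the value of Prdm1 was not tested.

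Trp63 stood at 168 FPKM in cKO-labelled and 209 in Het-labelled cells, a log2 difference of -0.31. The 20 genes listed for the basal layer, many with p63 sites, had 19 measured members. Of these 15 were higher, where 60.9% of all genes were, and none passed 2-fold in either direction, where 4.09% did. Their median was 0.20, or 0.13 when centred. Cdkn1a (0.75) and Krt14 (0.67) were the highest of that list, and Bcl11b (-0.51) and Jag2 (-0.13) the lowest. The level of Trp63 was thus lower while most of these basal genes, like most genes in this pair, were higher. Trp63 and all 19 measured basal genes stayed within 2-fold.

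The other 6 genes lay between -0.29 and 0.04. Klf5, a Krüppel-like factor of proliferating basal cells, stood at 6.42 FPKM in cKO-labelled and 8.06 in Het-labelled cells (-0.29). Of the grainyhead-like genes, Grhl1 stood at 10.2 against 11.8 FPKM (-0.20) and Grhl3 at 1.68 against 1.99 (-0.16). Grhl2 stood at 26.4 in cKO-labelled against 25.9 in Het-labelled cells (0.02), a sign that turned to -0.04 when centred, and to -0.03 with upper-quartile scaling. Ovol1, a zinc finger repressor that restrains growth of epidermal progenitors in mice, stood at 2.75 against 2.65 FPKM (0.04, or -0.03 when centred). Zfp750 stood at 4.02 against 4.68 FPKM (-0.18). All 6 lay within the central 95% of genes that reach 5 FPKM on both sides, which ran from -0.50 to 0.61, while Klf4 and Prdm1 lay outside it. Grhl3, Ovol1 and Zfp750 were themselves under 5 FPKM, where the added 1 shrinks a difference more than in those genes.

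The second comparison sets LacZ-positive against LacZ-negative bulge cells. Here 3 of the 9 genes were higher by 2-fold or more and 0 lower, where 7.27% of all 13283 genes at 1 FPKM or more passed that line in either direction, 4.67% higher and 2.6% lower. The 9 genes had a median of 0.23, against -0.13 over all those genes, with 5 genes higher and 4 lower, where 36.6% of all genes were higher. This pair carries a general shift, with a median of -0.17 for genes that reach 5 FPKM on both sides, so centred values are given beside the others. Centring moved the share of higher genes among all those past 2-fold from 64.2% to 78.2%, and upper-quartile scaling to 73.7%. The 3 genes, Klf5, Zfp750 and Grhl3, stayed past 2-fold in both.

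Klf5 had the largest difference of the 9. It stood at 13.6 FPKM in LacZ-positive cells against 3.998 in LacZ-negative cells, a log2 difference of 1.54 and a centred one of 1.71, which puts it among the highest 2.03% of all genes. It is the single gene in its interval (ENSMUSG00000005148, mm9 chromosome 14, 99697909 to 99712624). The LacZ-positive value is the highest of the 4 libraries and the LacZ-negative value the lowest.

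Zfp750, whose human counterpart is induced by p63 and drives late differentiation genes, stood at 15.5 FPKM in LacZ-positive cells against 5.57 in LacZ-negative cells. The log2 difference was 1.33, or 1.498 when centred. Its interval (ENSMUSG00000039238, mm9 chromosome 11, 121313262 to 121534467) is given to 3 genes, so reads of neighbours can enter its value. The neighbours were chosen for mention after their values were seen. Tbcd stood at 16.8 against 26.0 FPKM (-0.60) and B3gntl1 at 3.98 against 4.28 (-0.08). Their part in the value of Zfp750 was not tested. Relative to Trp63 in the same library, Zfp750 came to 6.52% in LacZ-positive cells and 2.12% in LacZ-negative cells, and to 2.40% in cKO-labelled and 2.24% in Het-labelled cells.

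Grhl3, which mice need for barrier formation and wound closure, stood at 5.22 FPKM in LacZ-positive cells against 1.68 in LacZ-negative cells. The log2 difference was 1.21, or 1.38 when centred, and the gene is alone in its interval (ENSMUSG00000037188, mm9 chromosome 4, 135097802 to 135129545). Grhl1, which in mice supports desmosomal cadherin expression and hair anchoring, stood at 24.6 against 13.4 FPKM, a log2 difference of 0.83 and a centred one of 0.998, just under the 2-fold line. Grhl2, which in other epithelia activates genes of adherens and tight junctions, ran the other way, at 29.0 against 38.2 FPKM (-0.39, centred -0.22). Its interval is also given to 3 genes, of which Gm16136, named after its value was seen, stood at 48.7 against 53.1 FPKM.

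The grainyhead-like genes thus differed in their balance more than in their sum. Their summed FPKM was 58.8 in LacZ-positive cells against 53.3 in LacZ-negative cells. Grhl1 and Grhl3 made up 41.8% and 8.88% of that sum in LacZ-positive cells, against 25.2% and 3.15% in LacZ-negative cells, and Grhl2 made up 49.3% against 71.7%. In the first pair the shares were close to each other, with Grhl2 at 69.0% in cKO-labelled and 65.2% in Het-labelled cells. Such shares within a library do not depend on its scaling.

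Klf4 stood at 113 FPKM in LacZ-positive cells against 159.8 in LacZ-negative cells, a log2 difference of -0.49, or -0.32 when centred. Klf4 and Klf5 therefore ran in opposite directions. The ratio of Klf4 over Klf5 was 8.35 in LacZ-positive cells against 39.98 in LacZ-negative cells, and 42.3 in cKO-labelled against 19.98 in Het-labelled cells. In each pair the library with the lower Axin2 value had the higher ratio, but the LacZ cells were sorted by Axin2 reporter activity. The larger log2 difference was that of Klf4 in cKO-labelled over Het-labelled cells (0.75, Klf5 -0.29). It was that of Klf5 in LacZ-positive over LacZ-negative cells (1.54, Klf4 -0.49). A link between the ratio and Axin2 was not tested.

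**Figure D2:**
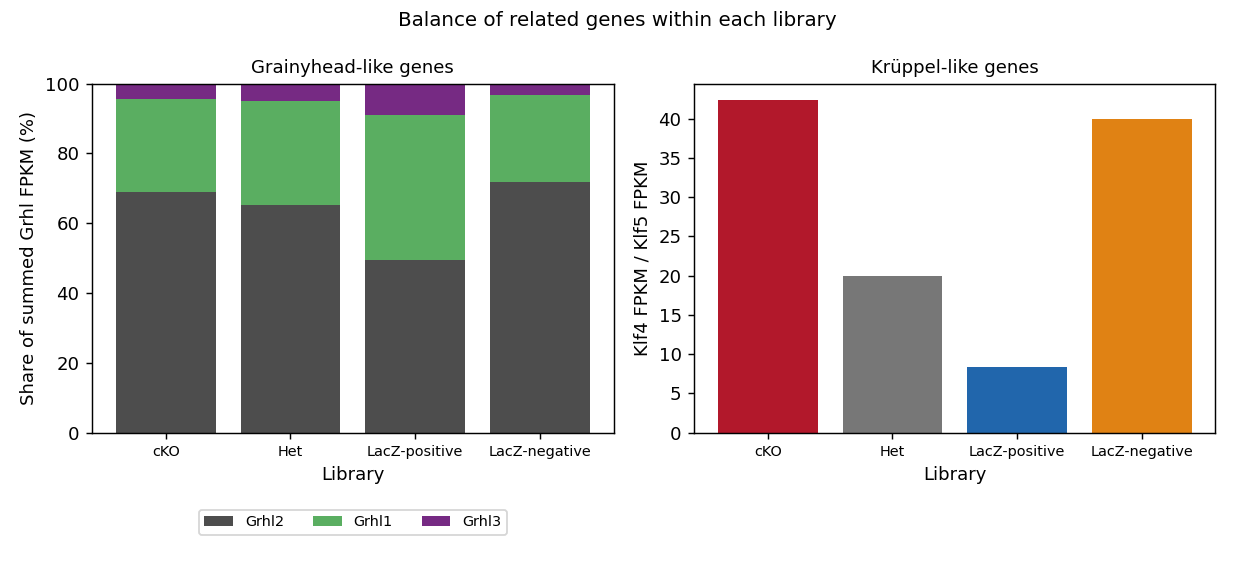
Left, shares of Grhl2, Grhl1 and Grhl3 in their summed FPKM (%) in each library; right, FPKM of Klf4 divided by FPKM of Klf5, 1 bar per library. Grhl2 holds 49.3% in LacZ-positive cells and 65.2% or more in the other libraries, and the Klf4 to Klf5 ratio is lowest, at 8.35, in LacZ-positive cells.

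Trp63 differed little between the LacZ populations, at 237 FPKM in LacZ-positive cells against 263 in LacZ-negative cells, with a log2 difference of -0.15 that turned to 0.02 when centred. Its interval (ENSMUSG00000022510, mm9 chromosome 16, 25683848 to 25892188) is shared only with a U6 feature listed at 0. Ovol1 stood at 6.70 against 5.58 FPKM (0.23, centred 0.40) and Prdm1 at 2.29 against 3.26 (-0.37, centred -0.20). These 3 genes and Klf4, Grhl1 and Grhl2 all lay within the central 95% of genes, which ran from -0.91 to 0.85 in this pair. Prdm1 was itself under the 5 FPKM that those genes reach.

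**Figure D3:**
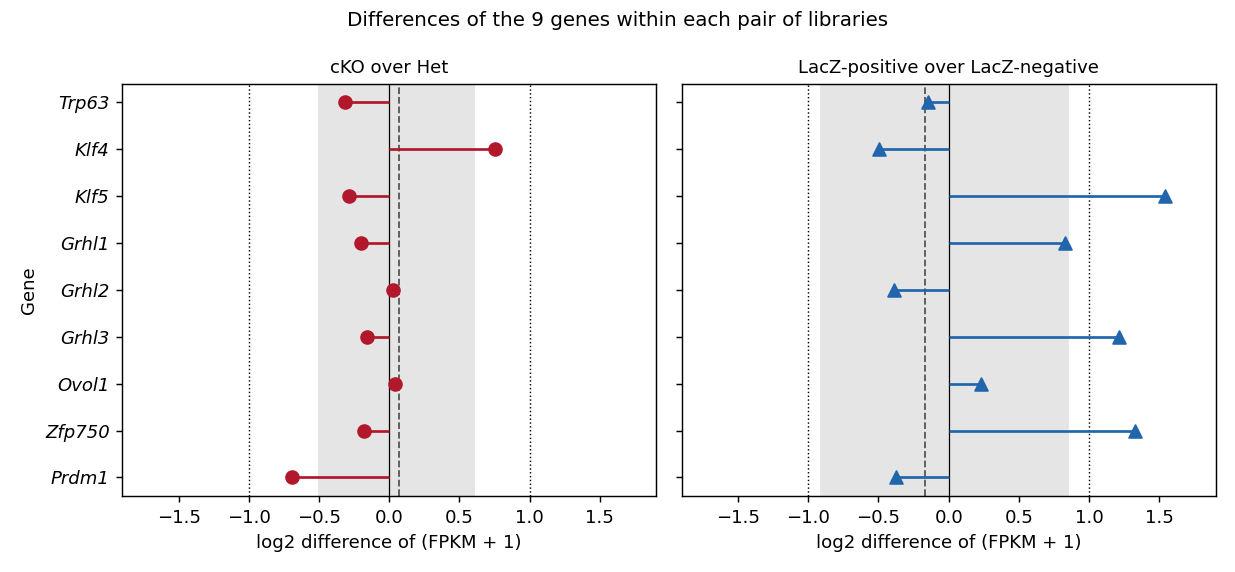
Log2 differences of (FPKM + 1) for the 9 genes, cKO-labelled over Het-labelled on the left and LacZ-positive over LacZ-negative on the right. Grey marks the central 95% of genes with at least 5 FPKM in each library of the pair, the dashed line their median, and dotted lines 2-fold; Klf5 (1.54), Zfp750 (1.33) and Grhl3 (1.21) pass 2-fold on the right and no gene does on the left.

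Genes of the epidermal layers were read from fixed lists, whose members were not tested as targets of the 9 factors. Of 25 barrier and junction genes, 24 were measured in the LacZ pair, that is at 1 FPKM or more in either library. Of these 21 were higher, 8 by 2-fold or more, and 1 was lower by at least 2-fold, and their median was 0.70. Abca12, the lipid transporter of lamellar granules, stood at 6.66 FPKM in LacZ-positive against 1.66 in LacZ-negative cells (1.52), and Dsg1a, a desmosomal cadherin, at 95.1 against 34.2 (1.45). The lowest were the transglutaminase gene Tgm5, at 141 against 325 FPKM (-1.20), and Evpl at -0.38. In the cKO-labelled and Het-labelled pair the same list had 6 of 23 genes higher, none past 2-fold and a median of -0.11. Over all genes of that pair 60.9% were higher and 4.09% passed 2-fold. Its extremes there were Elovl4 (0.46) and Spink5 (0.45), and Klk7 (-0.55) and Evpl (-0.33).

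Of 20 terminal differentiation genes, 16 were measured in the LacZ pair, 14 higher, 9 by 2-fold or more and none lower by 2-fold, with a median of 1.05. Sprr1b stood at 4.30 FPKM in LacZ-positive against 0.555 in LacZ-negative cells (1.77), and Sprr1a at 54.5 against 17.6 (1.58), both precursors of the cornified envelope. Calml3 (-0.94) and Dmkn (-0.49) were the lowest. In the first pair this list had a median of -0.35 with 10 of 16 genes lower and 6 higher. Sprr1b was lower by 2-fold or more (-3.04) and Lce1b came next (-0.98), and the highest were Dmkn (0.40) and Sbsn (0.31). The basal list, by contrast, had 8 of 19 genes higher in LacZ-positive cells, where 36.6% of all genes were higher. None of its genes passed 2-fold, where 7.27% of all genes did, and its median was -0.16, which turned to 0.01 when centred. Cdkn1a (0.81) and Pkp1 (0.48) were its highest and Fgfr2 (-0.76) and Lamb3 (-0.72) its lowest.

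Of 29 other epidermal regulators, 28 were measured in the LacZ pair, 12 higher and 16 lower, where 36.6% of all genes were higher. By 2-fold 0 of them were higher and 2 lower, where 4.67% and 2.6% of all genes were. Their median was -0.15 (0.02 when centred). The highest were Pou2f3, at 25.3 FPKM in LacZ-positive against 13.6 in LacZ-negative cells (0.85), and Ehf, at 1.31 against 0.336 FPKM (0.79), levels at which the added 1 compresses the ratio. Those lower by 2-fold were Dlx3, a homeobox gene of hair and upper epidermis, at 6.88 against 29.9 FPKM (-1.97), and Id1, a BMP response gene, at 56.7 against 148 (-1.37). In the first pair 25 were measured and 1 passed 2-fold, where 4.09% of all genes did. It was Pou3f1, at 3.83 FPKM in cKO-labelled against 11.2 in Het-labelled cells (-1.34). Gata3 was next at -0.87, and Ets2 (0.46) and Maf (0.38) were the highest. Of 35 relatives of the 9 genes, 24 were measured in each pair and none passed 2-fold in either. Over all genes, 4.09% did in the first pair and 7.27% in the LacZ pair, so few of 24 would at those shares. Klf6 was the highest of them in both, at 0.55 in cKO-labelled over Het-labelled and 0.61 in LacZ-positive over LacZ-negative cells. Next came Klf15 (0.51) in the first pair and Prdm15 (0.58) in the second. The lowest were Klf10 (-0.91) and Trp73 (-0.48) in the first pair, and Ovol2 (-0.76) and Klf13 (-0.61) in the second. The list's median in the LacZ pair was -0.10, which turned to 0.07 when centred.

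**Figure D4:**
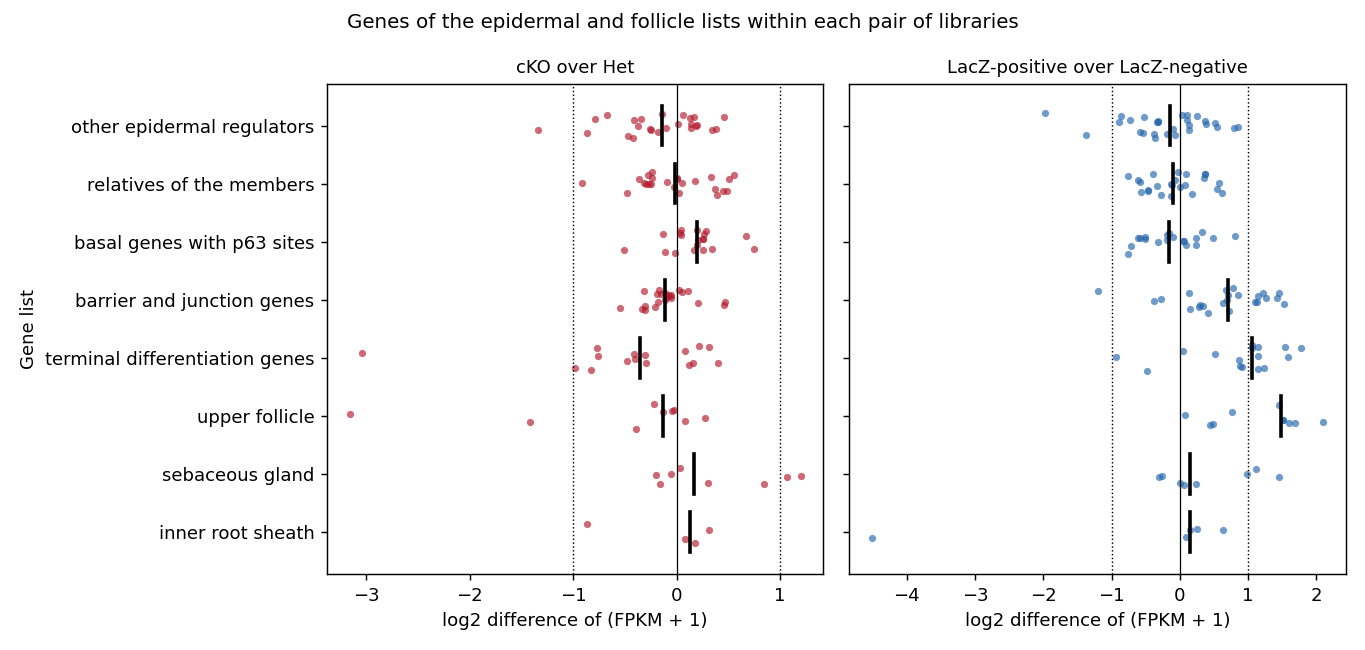
Log2 differences of (FPKM + 1) for genes of 8 lists, cKO-labelled over Het-labelled on the left and LacZ-positive over LacZ-negative on the right; each point is a gene at 1 FPKM or more in either library, black bars are list medians and dotted lines 2-fold. Barrier (0.70), terminal differentiation (1.05) and upper follicle (1.48) medians lie above 0 on the right, and the other epidermal regulators (-0.15) and relatives (-0.10) do not, though both turn to slightly positive values (0.02 and 0.07) when centred.

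Markers of the upper follicle, the region above the bulge, ran with Klf5, Zfp750 and Grhl3. All 10 were measured in the LacZ pair and all 10 were higher in LacZ-positive cells, 6 by at least 2-fold. Their median was 1.48, and the summed level was 2822 FPKM in LacZ-positive against 1323 in LacZ-negative cells. Defb6 stood at 1031 against 241 FPKM (2.09) and Ly6a at 73.9 against 22.2 (1.69), while Klk10 (0.08) and Krt17 (0.44) differed least. None of the 10 was listed at 0. Cell cycle genes ran the same way, with 21 of 21 higher, 17 by 2-fold or more and a median of 1.75. The bulge list had a median of -0.52, against -0.13 over all genes. It had 5 of 15 genes higher and 10 lower, where 36.6% of all genes were higher in this pair. Krt15 counts as higher there through its listed 0. The part of these lists in the 3 genes' differences was not tested. In the first pair cell cycle genes were lower, 19 of 20 with a median of -1.004 and 10 by 2-fold or more, and Klf5, Zfp750 and Grhl3 were at -0.29, -0.18 and -0.16, all within the central 95% of genes. The upper follicle list there had 7 of 9 genes lower, Lgr6 (-3.16) and Krt17 (-1.41) by 2-fold or more, and Lrig1 (0.27) and Ly6a (0.08) were its highest.

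The genes most like Klf5, Zfp750 and Grhl3 were sought among 9393 genes at 5 FPKM or more in both pairs and above 0 in all 4 libraries, as those with the smallest larger gap in the log2 differences of the pairs. Nearest to Klf5 was Krt79, a keratin of the upper follicle, at 362 FPKM in LacZ-positive cells against 119 in LacZ-negative cells (1.59), with -0.21 in cKO-labelled over Het-labelled and a gap of 0.07, followed by snoZ40 (0.11) and Scin (0.14). Nearest to Zfp750 were Rrm2, a gene of DNA synthesis (gap 0.03), Serpinb7 (0.04) and Itpr2 (0.07). Nearest to Grhl3 were Tppp3 (0.06), Serpinb7 (0.07) and Lmbr1 (0.08), so Serpinb7, a serine protease inhibitor gene of the epidermis, was named for both. Grhl3 and Zfp750 were themselves under 5 FPKM in both libraries of the first pair, so the added 1 shrinks their differences more. Without it their log2 differences in the LacZ pair were 1.63 for Grhl3 and 1.48 for Zfp750, so the gaps depend on it. Likeness over 4 libraries and 2 differences is a description only.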

How the data were processed

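RNA was measured in 4 libraries, grouped by sample labels, with 1 library per group; the 4 ChIP samples were left out. The values are FPKM per gene in 2 tables that the authors deposited. The authors' deposited log2 ratio of cKO over Het was used only as a check, and for all 9 genes it lies within 0.01 of that of the FPKM. Cufflinks 2.1.1, TopHat2 2.0.4 and TopHat, with mm9 and GRCm38, are named without roles in the submitters' processing notes; the sources used here give no strand or multi-read settings. FPKM divide by a library total, so abundant features can shift all values. Coordinates are taken as mm9, since on chromosome 7 they reach 152509964, beyond the last GRCm38 gene end in the reference table (145324059). Low values shared by a pair gathered at a log2 ratio of 0.05 to 0.10 (cKO over Het, 249 of 3435 rows) and -0.15 to -0.10 (LacZ pair, 107 of 3116), which gives the relative worth of a fragment but no depth.

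Rows of a symbol were summed, and 25 symbols that had become dates were restored by Ensembl identifier. Of the list genes, 6 were found under an older symbol. A log2 difference used a pseudocount of 1 and genes whose higher library had 1 FPKM or more, and understates changes of low genes. The 9 genes, the 16 gene lists and the rules were chosen with earlier results of these data known. Named are the 9 genes, the 2 highest and 2 lowest of each epidermal, barrier and upper follicle list, examples from other lists, and the 3 genes nearest to each of the 3 past 2-fold. Python 3.11.15 with pandas 2.3.3 and numpy 2.4.6 was used, tested on simulated data, and 10 alternatives were tried.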

Additional observations from a re-analysis of the deposited data

How the results depend on the processing

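The 10 alternatives were a pseudocount of 0.1 or 5, no minimum or a minimum of 5 FPKM, centring, upper-quartile scaling, each symbol's highest row, and leaving out small RNA, Gm, Rik and clone names, genes listed at 0, or genes that share an interval. In the LacZ pair Klf5, Grhl3 and Zfp750 stayed past 2-fold except that with a pseudocount of 5 the count was 1 (Klf5; Zfp750 at 0.96 and Grhl3 at 0.61) and that genes alone in their interval leave out Zfp750, Trp63 and Grhl2. In cKO over Het the count of 0 became 1 with a pseudocount of 0.1 (Prdm1). The median of the 9 genes kept its sign in all 10, between -0.25 and -0.10 in cKO over Het and between 0.15 and 0.53 in the LacZ pair. Of 169 single values of the 9 genes under the alternatives, 162 kept their sign and side of 2-fold, 7 did not and none that was past 2-fold turned its sign. Only the pseudocounts, centring and upper-quartile scaling could change a value of these genes, and all 7 fell under them. The other alternatives repeat the main value or leave the gene out, so the 162 overstate stability. Of 297 list medians 277 kept their sign and side of 2-fold and 20 did not. The count of all genes past 2-fold was 532 of 13014 in cKO over Het and became 784 with a pseudocount of 0.1, 303 with a pseudocount of 5, 237 of 10891 without small RNA, Gm, Rik and clone names, 335 of 12817 without genes listed at 0 and 257 of 7632 with genes alone in their interval. In the LacZ pair it was 966 of 13283 and became 1443 with a pseudocount of 0.1, 460 with a pseudocount of 5, 600 of 11115 without those names and 507 of 7799 with genes alone in their interval. No paired analysis was possible because each group has 1 library, and leaving out a library leaves no comparison. The missing depth and replicates limit all values.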
